A study of Mus musculus with 4 samples.

Results

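The genes examined here encode complement components and receptors, namely C1qa, C1qb, C1qc, C3, C4b, Cfp, Serping1, C3ar1 and C5ar1. They were chosen by gene symbol, and all 9 symbols were found among the 24346 gene rows of the expression table. The RNA came from mBMSCs, which are mesenchymal stem and progenitor cells grown out of the bone marrow of C57BL/6 mice aged 3 months (the study's methods give the strain as C57BL/6J). The cells were transfected by lipid reagent (Lipofectamine RNAiMAX) with a scrambled control siRNA (siScr) or with siRNA against ZBP1 (siZBP1), and RNA was taken 72 h later, with 2 samples in each group. Zbp1 encodes a sensor of nucleic acids in the Z conformation. The study's methods call the transfected cells duplicated, but no source says whether the replicates were separate cultures or animals. P-values here therefore measure only the spread between these samples, which may be technical. The sources used here do not say which ZBP1 siRNA these libraries received.

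Complement is a cascade of plasma and tissue proteins that tags cells and particles for uptake by phagocytes and lyses membranes. C1q, a complex of A, B and C chains, recognises targets of the classical pathway. Its partner proteases C1r and C1s then cleave C4 and C2, and the resulting enzyme cleaves C3. Released fragments of C3 and C5 act on the receptors C3ar1 and C5ar1, properdin (Cfp) stabilises the C3-cleaving enzyme of the alternative pathway, and C1 inhibitor (Serping1) blocks C1r, C1s and the lectin pathway proteases. C1q is made mainly by macrophages and related myeloid cells, which also carry C3ar1, C5ar1 and Cfp, whereas C3, C4, C1r, C1s and C1 inhibitor are also made by fibroblasts and other stromal cells.

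Levels are given in FPKM, fragment numbers scaled to transcript length and to the mapped fragments of the sample, so that levels can be compared between genes. Knockdown was seen in the target itself, with Zbp1 at 86.0 and 62.0 FPKM in siScr cells and at 11.5 and 11.6 in siZBP1 cells. The FPKM of a sample summed to between 477974.3 and 492166.1, and 16003 to 16565 genes had a value above 0. The number of reads is unknown. The spacing of the lowest FPKM values gave a rough estimate of 15.5 and 20.4 M fragments in siScr cells and 11.2 and 19.0 M in siZBP1 cells. Differences were tested with limma on log2(FPKM + 1) for 11959 genes, those averaging 1 FPKM or more over all samples, and an adjusted p under 0.05 was called a change. Fold changes of limma are siZBP1 against siScr on that log2 scale, which understates the change of low genes. For single genes, the smallest two-sided p of an exact permutation test with these group sizes is 0.333, which all 9 genes but C3 reached.

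The cells were labelled as mesenchymal, but macrophage transcripts were abundant in every sample. All 20 genes of a list of macrophage markers were detected, and they summed to between 9577.8 and 13684.7 FPKM. The 16 genes of a mesenchymal list, which include the type I collagen genes, summed to between 4580.9 and 6793.6 FPKM. Markers of other cells were lower. The osteoclast list summed to between 28.54 and 45.25 FPKM. Neutrophil markers summed to 2.11 to 6.09 FPKM with Elane, Mpo, S100a9 and Ltf at 0 in all samples, B and T cell markers to 0.133 to 0.737, and endothelial markers to 4.59 to 5.73.

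The C1q chains were among the most abundant transcripts of the cultures, at ranks 26 (C1qb), 31 (C1qc) and 48 (C1qa) by mean FPKM over all genes. C3ar1 ranked 194 and C5ar1 705, followed by Cfp at 1216 and Serping1 at 2890. C3 ranked 7657 and C4b 12750, so that the components that stroma also makes were the lowest. The order of mean levels was C1qb, C1qc, C1qa, C3ar1, C5ar1, Cfp, Serping1, C3 and C4b in siScr cells, and the same order held in siZBP1 cells. No neighbours in that order overlapped within either group.

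**Figure D1:**
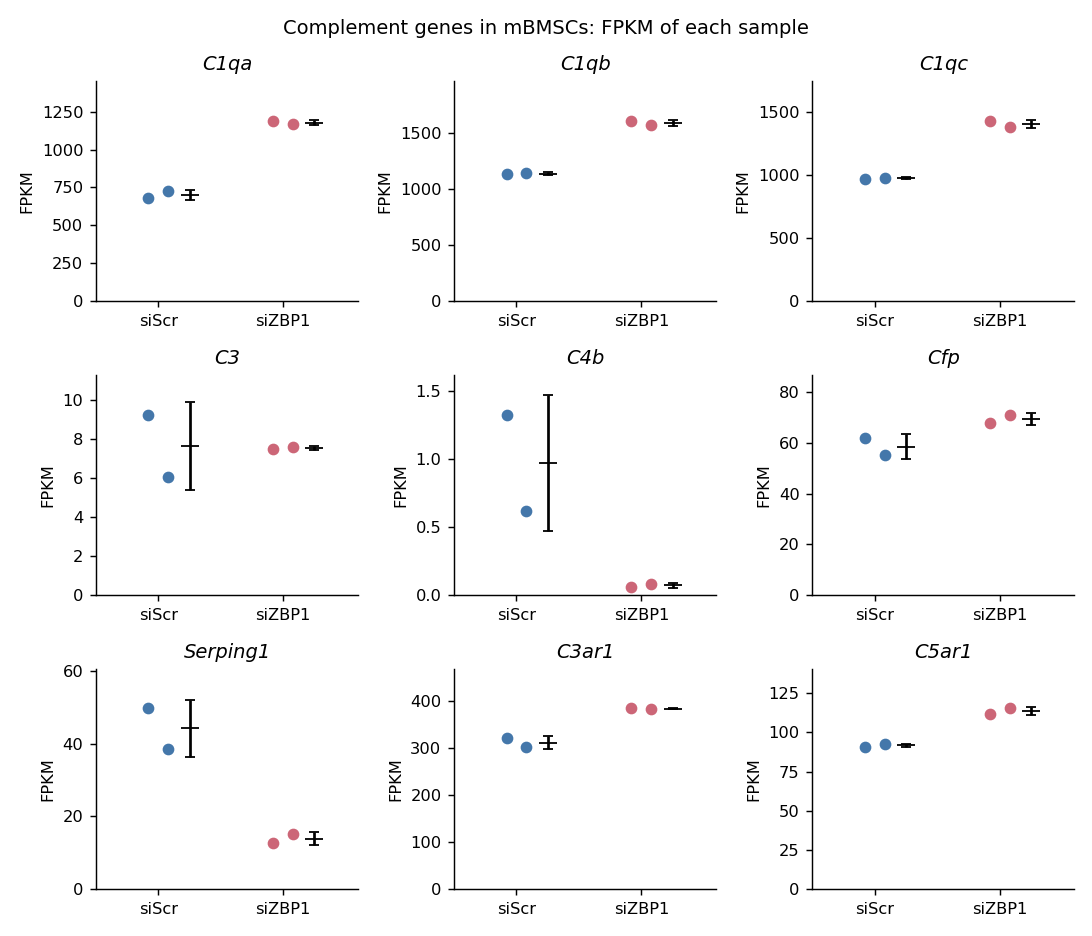
FPKM of each of the 9 complement genes in the 4 samples, with a panel and a linear axis from 0 for each gene. Points are samples (siScr blue, siZBP1 red) and bars are the mean and SD of 2; the siZBP1 points lie above the siScr points for the C1q chains, Cfp and both receptors, below them for Serping1 and C4b, and between them for C3.

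Of the 8 genes tested, 5 rose in siZBP1 cells (C1qa, C1qb, C1qc, C3ar1 and C5ar1), 1 fell (Serping1), and Cfp and C3 did not pass the test. Among all genes tested, 13.5% rose and 14.8% fell. The median log2 fold change was 0.30 over these 8 genes and 0.0045 over all genes tested. The siScr and siZBP1 values did not overlap for 6 genes that were higher and 1 that was lower in siZBP1 cells, against 34.7% of all genes tested that were higher without overlap and 33.7% that were lower. C4b was under the limit of mean expression and entered only comparisons of group means. By a ratio of means over 1.5-fold, 2 of the 9 genes were lower (Serping1 and C4b) and 1 was higher (C1qa), against 13.8% lower and 10.7% higher among the 16281 genes with both means above 0.

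The C1q chain genes lie side by side on chromosome 4 of GRCm38, all on the minus strand. C1qb (chr4:136880129-136886187) comes first, then C1qc (chr4:136889804-136893065) and C1qa (chr4:136895917-136898803), within 18.7 kb, with 3616 bases between C1qb and C1qc and 2851 between C1qc and C1qa. Each is a protein-coding gene with 3 exons in the annotation. The promoters of C1qb and C1qc are shown with that of C3. They were chosen because the C1q chains were abundant and rose while C3 was low and did not pass the test. RefSeq promoters of 300 bases (GRCm38.p6, minus strand) were found for 6 of the 9 genes, and none for C1qa, C4b or Serping1. Capitals mark matches, on either strand, to the core site GAGGAA of the myeloid factor PU.1 in C1qb and C1qc, and to TTGCNNAA, a form of the C/EBP site, and TATAAA in C3.
C1qb, chr4:136886151-136886450: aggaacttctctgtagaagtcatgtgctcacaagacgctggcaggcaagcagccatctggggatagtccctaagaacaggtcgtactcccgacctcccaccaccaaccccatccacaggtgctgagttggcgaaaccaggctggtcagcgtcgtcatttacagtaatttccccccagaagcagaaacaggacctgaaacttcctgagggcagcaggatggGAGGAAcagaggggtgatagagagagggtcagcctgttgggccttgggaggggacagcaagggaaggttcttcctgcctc
C1qc, chr4:136892865-136893164: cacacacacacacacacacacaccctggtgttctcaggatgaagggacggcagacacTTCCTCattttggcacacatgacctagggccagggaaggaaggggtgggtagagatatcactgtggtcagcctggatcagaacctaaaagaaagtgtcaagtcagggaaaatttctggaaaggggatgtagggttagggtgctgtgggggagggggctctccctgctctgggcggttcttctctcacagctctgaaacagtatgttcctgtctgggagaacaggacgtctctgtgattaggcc
C3, chr17:57228087-57228386: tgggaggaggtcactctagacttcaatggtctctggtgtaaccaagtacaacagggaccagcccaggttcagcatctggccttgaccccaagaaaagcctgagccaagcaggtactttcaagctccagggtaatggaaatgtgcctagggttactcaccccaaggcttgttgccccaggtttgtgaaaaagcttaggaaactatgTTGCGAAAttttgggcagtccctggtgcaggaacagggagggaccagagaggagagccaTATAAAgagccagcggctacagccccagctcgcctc

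Positions count from the RefSeq start of each promoter, and the GAGGAA match began at -30 in C1qb and, on the opposite strand, at -193 in C1qc. The gene limits given in the text came from GENCODE, which starts C1qc, C3ar1 and C5ar1 upstream of the RefSeq start and C1qb downstream of it. Distances therefore differ between annotations. Cfp held 2 matches to the same letters just after its start, at 6 and 22, and C3, C3ar1 and C5ar1 held none in this window. GAGGAA was present in 28.3% of 32851 RefSeq promoters of the same length. The C/EBP form lay at -45 in C3, in none of the other 5 promoters, and in 10.8% of all promoters. TATAAA was found at 14 in C3 and at -235 in C3ar1, and in 13.6% of all promoters. GAAANNGAA, the core of the interferon-stimulated response element, matched only C5ar1 of the 6 and 8.6% of all promoters, and GGGNNTTTC, a form of the κB site, matched only C3ar1 and 4.4%. TTCNNNGAA, the gamma-activated site, matched none of the 6 and 8.3% of all promoters. These matches are descriptions of the sequence, and binding was not measured.

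All C1q chain genes rose in siZBP1 cells. C1qa, the A chain, was at 679.2 and 726.6 FPKM in siScr cells and at 1189.6 and 1166.1 in siZBP1 cells. Both siZBP1 samples lay far above both siScr samples, from a mean of 703 ± 33.6 (SD, n = 2) to 1178 ± 16.6, or 1.68-fold, and limma gave a log2 fold change of 0.74 (SE 0.053, 95% interval 0.61 to 0.88, adjusted p = 0.0036). C1qb, the B chain, was at 1129.8 and 1145.4 FPKM in siScr cells and at 1608.6 and 1569.9 in siZBP1 cells. Its groups were again apart, with a 1.40-fold ratio of means and a log2 fold change of 0.48 (SE 0.045, adjusted p = 0.0057). C1qc, the C chain, was at 970.3 and 977.4 FPKM in siScr cells and at 1427.1 and 1379.6 in siZBP1 cells, 1.44-fold higher, with a log2 fold change of 0.53 (SE 0.045, adjusted p = 0.0050). Replicates of a group differed by 0.729% to 6.74% of their mean, far less than the groups did. In bulk RNA, more macrophages and more C1q RNA per macrophage cannot be told apart. Without siZBP1 replicate 1 the log2 fold changes were 0.73, 0.46 and 0.50 for C1qa, C1qb and C1qc, and without replicate 2 they were 0.76, 0.50 and 0.55. The calls on these genes were lost in both of these fits, as were most calls among all genes tested.

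The make-up of the C1q transcripts differed between the groups. Of the summed FPKM of the C1q genes, C1qa held 24.4% and 25.5% in siScr cells and 28.2% and 28.3% in siZBP1 cells. C1qb held 40.6% and 40.2% in siScr cells and 38.1% in each siZBP1 sample, and C1qc 34.9% and 34.3% against 33.8% and 33.5%. The A chain thus gained share and the B and C chains lost it, with no overlap between groups for any chain. The ratio of C1qa to C1qb went from 0.601 and 0.634 to 0.740 and 0.743, while that of C1qc to C1qb was 0.859 and 0.853 against 0.887 and 0.879. These shares were not tested. C1qa was the scarcest of the chains in every sample and had the largest fold change.

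Macrophage markers moved with C1q. Of the 19 macrophage markers tested, 9 rose and none fell in siZBP1 cells, with 10 not passing the test and a median log2 fold change of 0.23 (range -0.15 to 1.25). At an unadjusted limma p under 0.05, 12 were higher and 1 was lower. Those with the largest changes were the mannose receptor Mrc1 (log2 fold change 1.25, adjusted p = 0.0079), lysozyme Lyz2 (0.81, adjusted p = 0.0191, but 0.0859 with quantile normalization) and the fractalkine receptor Cx3cr1 (0.70, adjusted p = 0.0135), while cathepsin S (Ctss), the second most abundant, had -0.15 (adjusted p = 0.0818). The log2 fold changes of C1qa, C1qc and C1qb were exceeded by 2, 3 and 4 of the 19 markers.

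Summed C1q was 0.290 and 0.273 of the summed macrophage markers in siScr cells and 0.309 and 0.315 in siZBP1 cells. Groups were apart, although the log2 change of this ratio was only 0.15. Lyz2 made up 29.4% to 42.9% of the macrophage sum. With Lyz2 left out, an alternative chosen after the data had been seen, the ratio was 0.411 and 0.419 against 0.541 and 0.538, a log2 change of 0.38. The size of the C1q rise relative to macrophage markers therefore depended on a single marker, and the part of macrophage RNA content in the rise was not tested.

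**Figure D2:**
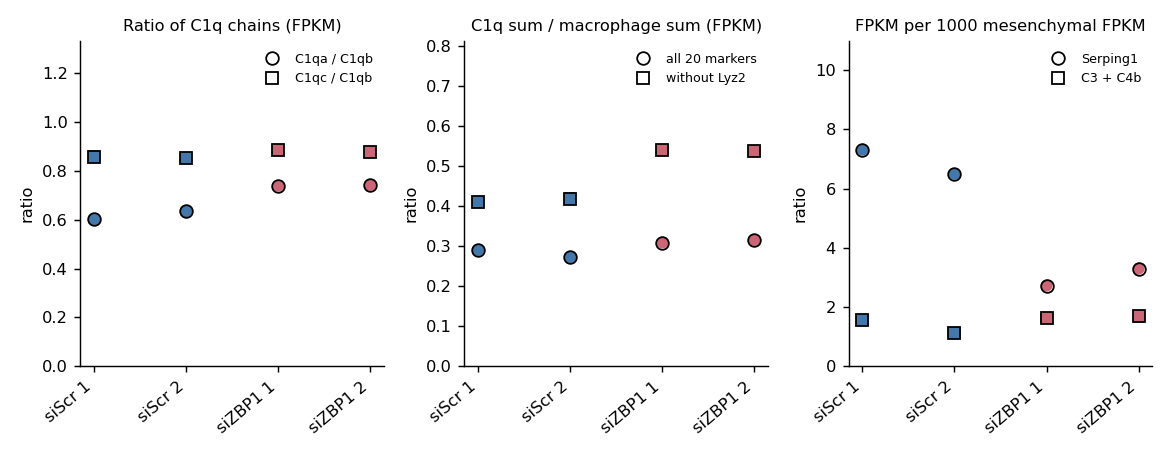
Ratios between C1q chains, of summed C1q to summed macrophage markers, and of Serping1 and of C3 with C4b to mesenchymal markers, from FPKM in each of the 4 samples (siScr blue, siZBP1 red). C1qa to C1qb went from 0.601 and 0.634 in siScr cells to 0.740 and 0.743 in siZBP1 cells, and Serping1 per 1000 FPKM of mesenchymal markers went from 7.32 and 6.50 to 2.73 and 3.30.

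C3 did not pass the test and C4b was lower in its values. C3 (chr17:57203970-57228136, minus strand, 41 exons), the central protein of the cascade, was at 9.25 and 6.07 FPKM in siScr cells and at 7.46 and 7.61 in siZBP1 cells. Both siZBP1 values lay between the siScr values, and the log2 fold change was 0.0043 (SE 0.19, 95% interval -0.49 to 0.50, adjusted p = 0.989). A change of either sign of up to about that interval could not be seen with these samples, and the difference was negative without siScr replicate 2 (-0.26, adjusted p = 0.111) and without siZBP1 replicate 2 (-0.0079, adjusted p = 0.991). The estimated number of C3 fragments was 707 and 610 in siScr cells and 413 and 714 in siZBP1 cells.

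C4b (chr17:34728380-34743882, minus strand, 41 exons), one of the mouse C4 genes, was at 1.33 and 0.622 FPKM in siScr cells and at 0.0608 and 0.0847 in siZBP1 cells. The groups did not overlap and the mean was 13.4-fold lower in siZBP1 cells, 0.975 ± 0.50 (SD, n = 2) against 0.0727 ± 0.017. These levels correspond to an estimated 107 and 66 fragments in siScr cells and to 4 and 8 in siZBP1 cells. C4b was below the limit for testing. With no limit on expression limma gave a log2 fold change of -0.86 (adjusted p = 0.0492). C4b shares 35.2% of its 50-base windows with C4a, the neighbouring copy, so the assignment of fragments between them is uncertain. C4a itself was at 0.0886 and 0.041 FPKM in siScr cells and at 0.061 and 0.0188 in siZBP1 cells. None of the other 8 genes shared a window with another gene.

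Mesenchymal markers moved down with ZBP1 depletion. Of the 15 tested, 7 fell and none rose, with a median log2 fold change of -0.44 (range -2.81 to 0.27). At an unadjusted limma p under 0.05, 9 were lower and 0 higher. Cxcl12, a chemokine of marrow stroma, had the largest change (-2.81, adjusted p = 0.0021), followed by decorin (Dcn, -1.70, adjusted p = 0.0077) and the collagen chain Col1a1 (-1.26, adjusted p = 0.0048), whereas Col1a2 had -0.09 (adjusted p = 0.450). Per 1000 FPKM of summed mesenchymal markers, C3 was at 1.36 and 1.02 in siScr cells and at 1.61 and 1.66 in siZBP1 cells. On the same scale C4b was at 0.196 and 0.105 in siScr cells and at 0.0132 and 0.0185 in siZBP1 cells. Relative to these markers C3 was thus higher in siZBP1 cells and C4b lower, each without overlap, and these ratios were not tested. C3 itself did not pass the test, while the marker sum was 6793.6 and 5947.6 FPKM in siScr cells and 4623.0 and 4580.9 in siZBP1 cells. Within that sum Col1a1 had a mean of 2793.1 FPKM in siScr and 1159.9 in siZBP1 cells, and Col1a2 1949.1 and 1820.0. Both siScr samples also differed from each other, since replicate 1 was higher than replicate 2 for C3, C4b, Col1a1 and Dcn.

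**Figure D3:**
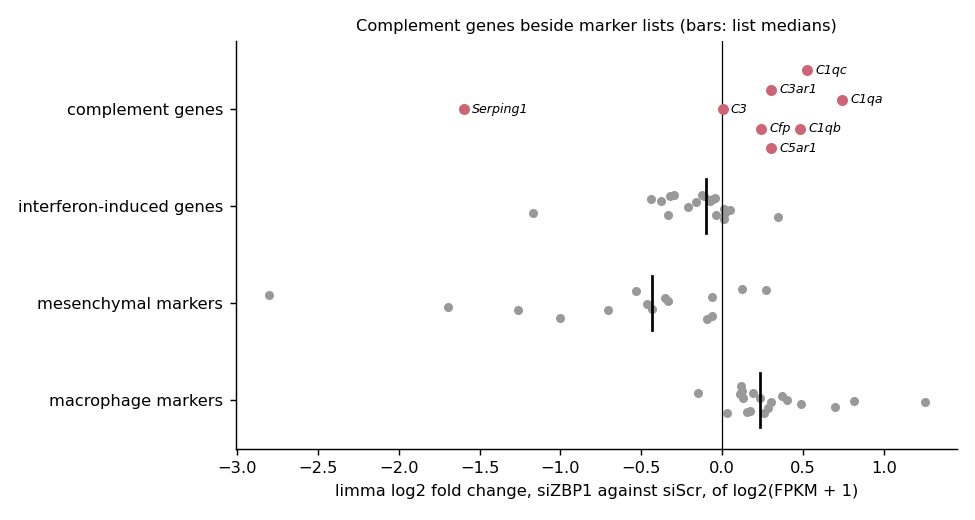
Limma log2 fold changes (siZBP1 against siScr, of log2(FPKM + 1)) of the 8 complement genes tested beside genes of the macrophage, mesenchymal and interferon lists, with a bar at each list's median. C1q chains lie to the right of the macrophage median of 0.23, Serping1 lies to the left of the mesenchymal median of -0.44, and C3 lies at 0.0043.

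The regulators went in opposite directions in their values, and only C1 inhibitor passed the test. Serping1 (chr2:84765387-84775444, minus strand, 8 exons) was at 49.7 and 38.6 FPKM in siScr cells and at 12.6 and 15.1 in siZBP1 cells. Even the lower siScr sample was far above both siZBP1 samples. The mean fell from 44.2 ± 7.82 (SD, n = 2) to 13.9 ± 1.77, 3.19-fold, with a log2 fold change of -1.60 (SE 0.15, 95% interval -1.99 to -1.21, adjusted p = 0.0055). Without siZBP1 replicate 1 or 2 the log2 fold change was -1.48 or -1.72 (adjusted p = 0.0857 or 0.0689).

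Serping1 was also lower relative to the summed mesenchymal markers, going from 7.32 and 6.50 per 1000 FPKM of mesenchymal markers in siScr cells to 2.73 and 3.30 in siZBP1 cells. Col1a1, Col1a2 and S100a4 made up 86.8% to 88.6% of that sum. Without them, an alternative chosen after the data had been seen, Serping1 was at 56.4 and 56.9 against 20.7 and 25.3. Single stromal markers differed, and Cxcl12 (-2.81) and Dcn (-1.70) had larger log2 falls than Serping1. The ratio of summed C1q to Serping1 was 55.9 and 73.7 in siScr cells and 335.1 and 272.4 in siZBP1 cells. C1 inhibitor blocks the proteases C1r and C1s and not C1q itself, so this ratio does not measure inhibition. Cfp (chrX:20925454-20931555, minus strand, 9 exons), which encodes properdin, was at 62.1 and 55.2 FPKM in siScr cells and at 67.8 and 71.3 in siZBP1 cells. Its groups did not overlap, but the log2 fold change of 0.24 (SE 0.071) missed the threshold (adjusted p = 0.0654), and passed it when microRNA and small nucleolar RNA genes were left out (adjusted p = 0.0341).

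Receptors for the released fragments of C3 and C5 rose by similar amounts. C3ar1 (chr6:122847138-122856161, minus strand, 2 exons), the C3a receptor, was at 320.4 and 301.0 FPKM in siScr cells and at 384.0 and 382.5 in siZBP1 cells. The groups were apart, 1.23-fold, with a log2 fold change of 0.30 (SE 0.047, adjusted p = 0.0150). C5ar1 (chr7:16246743-16259540, minus strand, 2 exons), the C5a receptor, was at 91.0 and 92.5 FPKM in siScr cells and at 111.8 and 115.4 in siZBP1 cells, 1.24-fold higher, with a log2 fold change of 0.31 (SE 0.040, adjusted p = 0.0102). The ratio of C3ar1 to C5ar1 ranged from 3.25 to 3.52 and overlapped between groups.

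The level of the receptors relative to macrophage markers depended on Lyz2. The sum of the receptors was 0.0430 and 0.0377 of the macrophage sum in siScr cells and 0.0362 and 0.0382 in siZBP1 cells, overlapping between groups. With Lyz2 left out, also chosen after the data had been seen, it was 0.0608 and 0.0578 against 0.0635 and 0.0651, higher in siZBP1 cells without overlap. Their log2 fold changes were each exceeded by 6 of the 19 macrophage markers. Without siZBP1 replicate 1 or 2 the adjusted p of C3ar1 was 0.144 or 0.126 and that of C5ar1 was 0.103 or 0.0994, and C5ar1 also missed the threshold without siScr replicate 1 (adjusted p = 0.0503).

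Another 51 complement genes, in lists of the pathway's other components, regulators and receptors, were examined in the same fit. All were in the table, 8 were at 0 in every sample and 17 were expressed highly enough to be tested. Of these, 5 fell, 5 rose and 7 did not pass the test, with a median log2 fold change of 0.07. When either siZBP1 sample was left out the calls on these 17 genes were lost, as were most calls among all genes tested. When either siScr sample was left out fewer of the 17, and fewer of all genes tested, passed.

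In the classical and lectin lists, 3 of 6 genes tested fell and 1 rose. C2, the protease that joins C4b in the C3-cleaving enzyme, was at 13.4 and 8.91 FPKM in siScr cells and at 5.14 and 5.13 in siZBP1 cells, with a log2 fold change of -0.96 (adjusted p = 0.0257). C1ra, the C1r protease, fell from 8.19 ± 1.36 (SD, n = 2) to 5.21 ± 0.31 FPKM (log2 fold change -0.56, adjusted p = 0.0357), and 50.8% of its 50-base windows occur in other genes, mostly C1rb. Its call was lost with no limit on expression (adjusted p = 0.0605), with quantile normalization (0.0503) and without siScr replicate 1 (0.0914). The partner protease C1s1 (-0.17, adjusted p = 0.401) and the C1r-like protease C1rl (-0.02, adjusted p = 0.899) did not pass the test.

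Colec12, a scavenger receptor with a collectin domain, was at 51.7 and 44.9 FPKM in siScr cells and at 17.9 and 19.7 in siZBP1 cells (log2 fold change -1.31, adjusted p = 0.0034). Masp1, a protease of the lectin pathway, went the other way, from 2.01 and 3.03 to 7.77 and 7.93 FPKM (log2 fold change 1.35, adjusted p = 0.0088). In the alternative pathway Cfd was at 0 in all samples and Cfb at 0.425 to 0.898 FPKM. C8g, the only gene of the terminal pathway tested, had a log2 fold change of -0.24 (adjusted p = 0.325).

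In the list of inhibitors and regulators, 1 gene rose and 1 fell among 4 tested. Cd55, which speeds the decay of C3-cleaving enzymes, rose from 1.01 ± 0.025 to 1.90 ± 0.18 FPKM (SD, n = 2 each; log2 fold change 0.53, adjusted p = 0.0386). Cd59a, which blocks assembly of the membrane attack complex, fell from 11.4 ± 1.47 to 7.30 ± 1.29 FPKM (-0.58, adjusted p = 0.0457). The call on Cd59a was lost without siScr replicate 1 or 2 (adjusted p = 0.102 or 0.172), with no limit on expression (0.0721), with quantile normalization (0.0511) and with no variance trend (0.0653). That on Cd55 was lost without siScr replicate 1 or 2 (adjusted p = 0.0758 or 0.0661) and with a pseudocount of 0.1 (0.0515). Cr1l, a rodent regulator of C3 deposition, did not pass the test (0.15, adjusted p = 0.0936).

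Among other receptors, 3 of 6 tested rose and 1 fell. Itgam, the alpha chain of complement receptor CR3, rose from 89.7 ± 7.93 to 115.7 ± 1.95 FPKM (log2 fold change 0.37, adjusted p = 0.0238). Itgax, the alpha chain of CR4, rose from 4.49 ± 0.72 to 6.68 ± 0.14 FPKM (0.49, adjusted p = 0.0390). The call on Itgax was lost with no limit on expression (adjusted p = 0.0687), at a limit of 5 FPKM (0.0537) and without siScr replicate 1 (0.0884). The shared beta chain Itgb2 did not pass the test (0.08, adjusted p = 0.221). Cd93, first described as a C1q receptor on phagocytes, rose from 60.4 ± 2.11 to 93.9 ± 2.99 FPKM (0.63, adjusted p = 0.0040). C1qbp, a mainly mitochondrial protein that binds C1q, was at the threshold (-0.28, adjusted p = 0.04995). Its call was lost with no limit on expression (adjusted p = 0.0702), quantile normalization (0.0566), 75th percentile scaling (0.0559) or no variance trend (0.0861), and when any sample was left out (0.0828 to 0.211). C5ar2, another receptor for C5a, did not pass the test (0.07, adjusted p = 0.608).

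**Figure D4:**
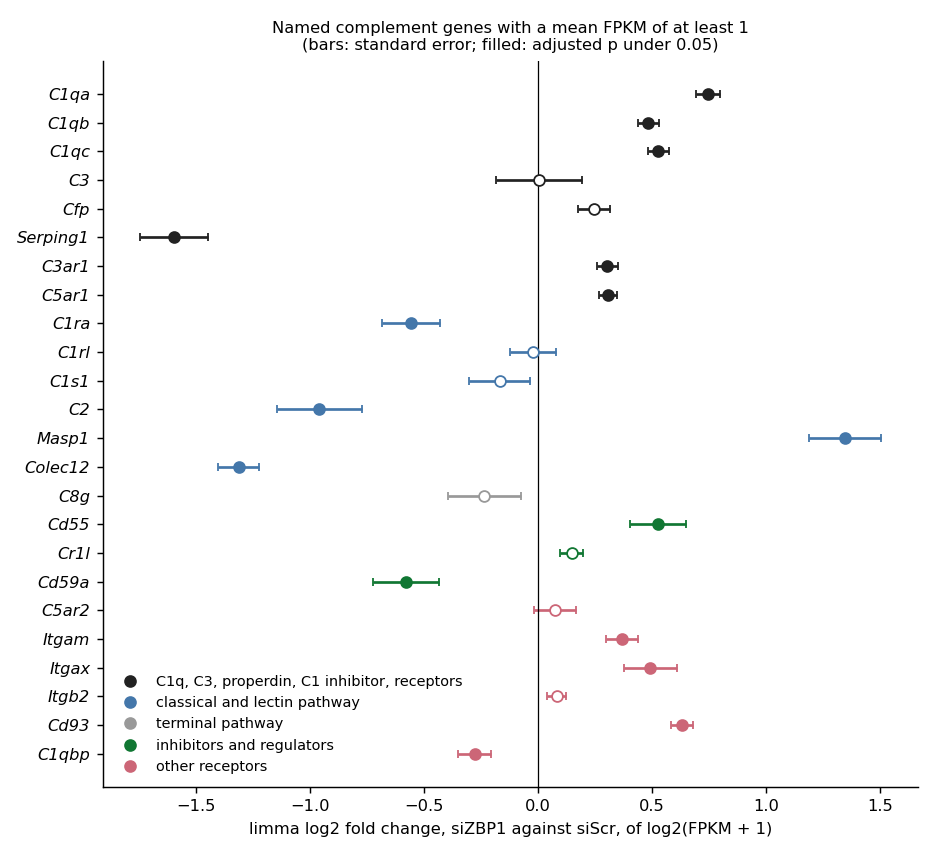
Limma log2 fold changes (siZBP1 against siScr, of log2(FPKM + 1)) of the complement genes named in the text that averaged 1 FPKM or more. Points are estimates, bars are standard errors and filled points have an adjusted p under 0.05; Serping1, Colec12 and C2 lie farthest to the left and Masp1 and C1qa farthest to the right.

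Interferon can induce Serping1, C4b and C2, so interferon-induced genes were examined beside them. Of 20 such genes tested, 2 fell, 1 rose and 17 did not pass the test, and the median log2 fold change was -0.10. Among all genes tested, 14.8% fell and 13.5% rose. At an unadjusted limma p under 0.05, 8 were lower and 1 was higher. The genes that fell were Irf7, a transcription factor (-1.17, adjusted p = 0.0107), and Ifit1, which binds viral RNA (-0.44, adjusted p = 0.0356, lost with no limit on expression at 0.0538 and with no variance trend at 0.0612), and the gene that rose was the chemokine Cxcl10 (0.35, adjusted p = 0.0230). The ubiquitin-like Isg15 had -0.38 (adjusted p = 0.0779). The fall of Serping1 was larger than that of any of these 20 genes. A part of interferon in the falls of Serping1, C4b and C2 was not tested. More of the 20 fell without siScr replicate 2. When either siZBP1 sample was left out the calls on these 20 genes were lost, as were most calls among all genes tested.

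Genes with the nearest profiles were sought among 8928 other genes that averaged 5 FPKM or more. Likeness was the root mean square difference of log2(FPKM + 1), each gene set to its siScr mean, over the 4 samples. For the mean of the C1q chains the nearest were Ak1 (0.0089), Ctsz, Acaa1a, Plekhb2 and Tpp1, and 246 genes lay within 0.1, so its pattern was common. Ctsz and Tpp1 encode lysosomal proteases. For C3 they were Col6a2 (0.048), Vcam1, Oas1a, Steap1 and Lst1, all higher in siScr replicate 1 than in replicate 2. For C4b they were Oasl1 (0.030), Nfix, Psph, C2 and Lmcd1. At the low level of C4b the added 1 FPKM shrinks its change, so this likeness is not one of fold change in FPKM. Serping1 had only 7 genes within 0.1, and the nearest were Gzmc (0.069), H2-K1, Serpinh1, Rspo2 and Rhobtb3. H2-K1, a class I histocompatibility gene, was at 570.7 and 483.8 FPKM in siScr cells and at 163.9 and 175.3 in siZBP1 cells.

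Few markers of the remaining cell types were expressed highly enough to be tested. The osteoclast list was mostly cathepsin K (Ctsk), which fell (log2 fold change -0.60, adjusted p = 0.0054), and its other gene tested, Acp5, had -0.41 (adjusted p = 0.317). The neutrophil alarmin S100a8 was at 0.434 and 0.322 FPKM in siScr cells and at 0.597 and 4.52 in siZBP1 cells (adjusted p = 0.239), and the chemokine receptor Cxcr2 had a log2 fold change of -0.13 (adjusted p = 0.628). Kdr, the only endothelial marker tested, had 0.22 (adjusted p = 0.176), and Emcn was at 0.895 to 1.06 FPKM. None of the B and T cell markers reached the limit of mean expression, with the highest, Cd3d and Cd79b, at 0.0729 to 0.230 and 0 to 0.243 FPKM.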

How the data were processed

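RNA-seq of 4 samples (2 siScr, 2 siZBP1) was analysed. The authors deposited FPKM values per gene and sample, together with group means, which equal the means of the replicates and were not used. The methods state TruSeq libraries, mapping with TopHat 2.0.12 and extraction of FPKM with HTSeq, while the submitters' processing notes name TopHat, Cufflinks and mm10. The annotation, any filter and the strand of the libraries are not given in the sources used here. FPKM keeps no read number, so no counting error could be computed.

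Samples were grouped by their labels. Log2(FPKM + 1) was fitted with limma 3.58.1 (R 4.3.3) with a variance trend for genes averaging 1 FPKM or more. P-values are two-sided and adjusted by Benjamini-Hochberg over all genes tested. The fit was tested on simulated data. Other pseudocounts, limits, scalings, the replicate block and the omission of each sample were tried. Positions, exons and shared 50-base windows came from GENCODE M21 (GRCm38) and promoters from RefSeq (GRCm38.p6). Tables and plots were made in Python 3.11.15 (pandas 2.3.3, numpy 2.4.6, matplotlib 3.10.9), and exact tests in scipy 1.17.1.

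The genes and lists were chosen with earlier results of these data known. Named were the 9 genes, Zbp1, every other complement gene that was tested (except 1, which is counted but not reported here), in each other list the 3 genes with the largest fold change and the 2 most abundant, and the 5 genes nearest to each profile. Cxcl10, the values of H2-K1 and C4a, and genes listed at 0 were named after values were seen.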

Additional observations from a re-analysis of the deposited data

How the results depend on the processing

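With all samples kept, the 6 calls on C1q chains, Serping1 and receptors kept their direction and side of the threshold in every alternative limma fit. C3 never passed it, and 2 results passed only in such a fit: C4b with no limit on expression (-0.86, adjusted p = 0.0492) and Cfp without small RNA genes (0.24, adjusted p = 0.0341). With no limit 2 of the 9 genes were lower, and by the ratio of means over 1.5-fold 2 were lower and 1 higher. C1qb, C1qc, C3ar1 and C5ar1 did not reach that ratio.

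Of the other complement genes 3 were lower with no limit, 2 with quantile normalization and 3 with no variance trend, and 3 were higher at a mean FPKM of at least 5. Of the interferon genes 1 was lower with no limit, 1 with no variance trend and 6 without small RNA genes. The ratio of C1q to macrophage markers changed by 0.30 (log2) as a median over the list and by 0.38 without Lyz2. C1rl reversed to 0.055 with quantile normalization. No setting moved the median of all genes by over 0.1.

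Leaving out a sample leaves 1 in a group, which is assumed to vary like the other group. It gave 23 to 1297 genes lower and 22 to 1019 higher, 0 to 1 of the 9 genes lower and 0 to 5 higher, 0 to 3 other complement genes lower and 0 to 5 higher, and 0 to 7 interferon genes lower and 0 to 1 higher. The log2 fold changes ranged from 0.70 to 0.79 (C1qa), 0.46 to 0.50 (C1qb), 0.50 to 0.55 (C1qc), -0.26 to 0.27 (C3), 0.16 to 0.33 (Cfp), -1.78 to -1.42 (Serping1), 0.26 to 0.35 (C3ar1), 0.28 to 0.33 (C5ar1), -0.071 to 0.030 (C1rl), -0.20 to 0.011 (Col1a2) and -0.30 to 0.032 (Cxcr2). Where calls were lost, the cause was not tested.

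Replicate differences were not shared between the groups (correlation of replicate 1 minus 2 differences -0.063 over 11959 genes). This correlation cannot show whether samples with the same replicate number were prepared together. With a replicate block no call on the 9 genes changed, the call on Cd55 was lost (adjusted p = 0.0645), and 6 interferon genes were lower. Depth is known only roughly, and it limits C4b most.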
